A study of Mus musculus with 9 samples.

Results

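Serum response factor (*Srf*), myocardin (*Myocd*) and the myocyte enhancer factor genes *Mef2a*, *Mef2c* and *Mef2d* were examined as chromatin targets of PBRM1 and BRG1 in the smooth muscle of the mouse oviduct. The 5 genes, of 21755 protein-coding genes on the autosomes and X, were chosen by name and not by their values. Earlier results of these data were known when the genes were chosen. For each, every peak was taken whose summit lay in the GENCODE vM21 gene body or within 20 kb of it. Peaks of the 6 replicate lists that overlapped by at least 1 bp were joined into sites. The loci held 105 peaks, which formed 36 of the 82949 sites in the genome, and 8 of these sites were among the 12828 with a peak in all 6 lists. A site was called a promoter site when its summit was within 2 kb of an annotated start of the gene, the promoter of another gene when it was within 2 kb of a start of a neighbor only, and distal otherwise.

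All libraries came from primary oviductal muscle cells of WT mice aged 8 to 12 weeks on day 2 of pregnancy (D2), the females having been mated with stud males. The cells were dissociated with enzymes, filtered, held in culture for a few hours and fixed with formaldehyde, and 50000 cells went into each library. ChIC-Seq, in which an antibody carries protein A fused to micrococcal nuclease to its target and the released fragments are sequenced, was carried out with antibodies to PBRM1 (BAF180) and BRG1, with 3 replicates each, and 3 IgG control samples are not analysed here. The labels do not say whether replicates came from separate mice, so each p-value measures only the spread between these libraries, which may be technical. The PBRM1 lists rested on 18126049 to 23992352 fragments and 31944 to 38116 peaks, and the BRG1 lists on 14284532 to 15897724 fragments and 35190 to 39434 peaks. To set the cell label beside the data, marker promoters were counted. Of 8 smooth muscle markers 3 (37.5%), *Acta2*, *Tagln* and *Smtn*, had a promoter peak in all 6 lists, a share no higher than the 41.8% of all protein-coding genes, so this count does not bear on the label. None of 7 epithelial, 4 stromal, 4 endothelial, 4 leukocyte or 4 cardiac and skeletal muscle markers did, and the 4 leukocyte promoters had no peak in any list. *Cnn1*, the gene of calponin, had no promoter peak either, and *Myh11* and *Actg2* had a promoter peak in 1 list each. Markers of other cell types had partial support as well. Endothelial *Kdr* had 5 lists, and epithelial *Cdh1* and stromal *Pdgfra* and *Dcn* had 3 each. The smooth muscle markers *Lmod1* and *Des* had 5 and 4.

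SRF is a MADS-box transcription factor that binds the CArG box, an A/T-rich element in the promoters of contractile and immediate early genes. Myocardin is its muscle-restricted coactivator, and together they switch on the smooth muscle contractile program, whereas the MEF2 proteins bind a related A/T-rich element and recruit class IIa histone deacetylases or p300. PBRM1 is a bromodomain subunit found in the PBAF form of the SWI/SNF remodeler, and BRG1 is one of the ATPases that drive SWI/SNF complexes of every form.

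The 5 genes differed in promoter occupancy. *Srf*, *Mef2a* and *Mef2c* had a promoter peak in all 6 lists, as did 41.8% of protein-coding genes. For *Mef2c* this rested on starts outside the GENCODE basic set of transcripts. With basic starts only, an alternative added after the data were seen, *Mef2c* had 4 lists, 1 for PBRM1 and 3 for BRG1, *Srf* and *Mef2a* still had 6, and the share of all genes was 40.0%. *Myocd* had one in 4 lists, 2 for each antibody, and *Mef2d* in 3 lists, 1 for PBRM1 and 2 for BRG1. Among the genes with 6 lists, the level of the highest promoter peak stood at the 99.4th percentile for *Srf* with either antibody, at the 54.5th percentile with BRG1 and the 36.1st with PBRM1 for *Mef2a*, and at the 5.74th and 3.92nd for *Mef2c*. The highest peak was taken in each library, so for *Srf* the PBRM1 levels are those of a site in intron 2 and the BRG1 levels those of the site at the start, and for *Mef2c* they come from 3 internal sites. All levels are summit pileups, the number of fragments that cover the summit, scaled to 1000000 fragments in the library (FPM). PBRM1 and BRG1 levels come from different antibodies, whose efficiency was not measured. A difference between them is therefore not a measure of the relative amounts of the proteins. Where a list has no peak the level is unknown and not 0. The lowest pileup that was called at all lay between 0.333 and 0.420 FPM, depending on the library.

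**Figure D1:**
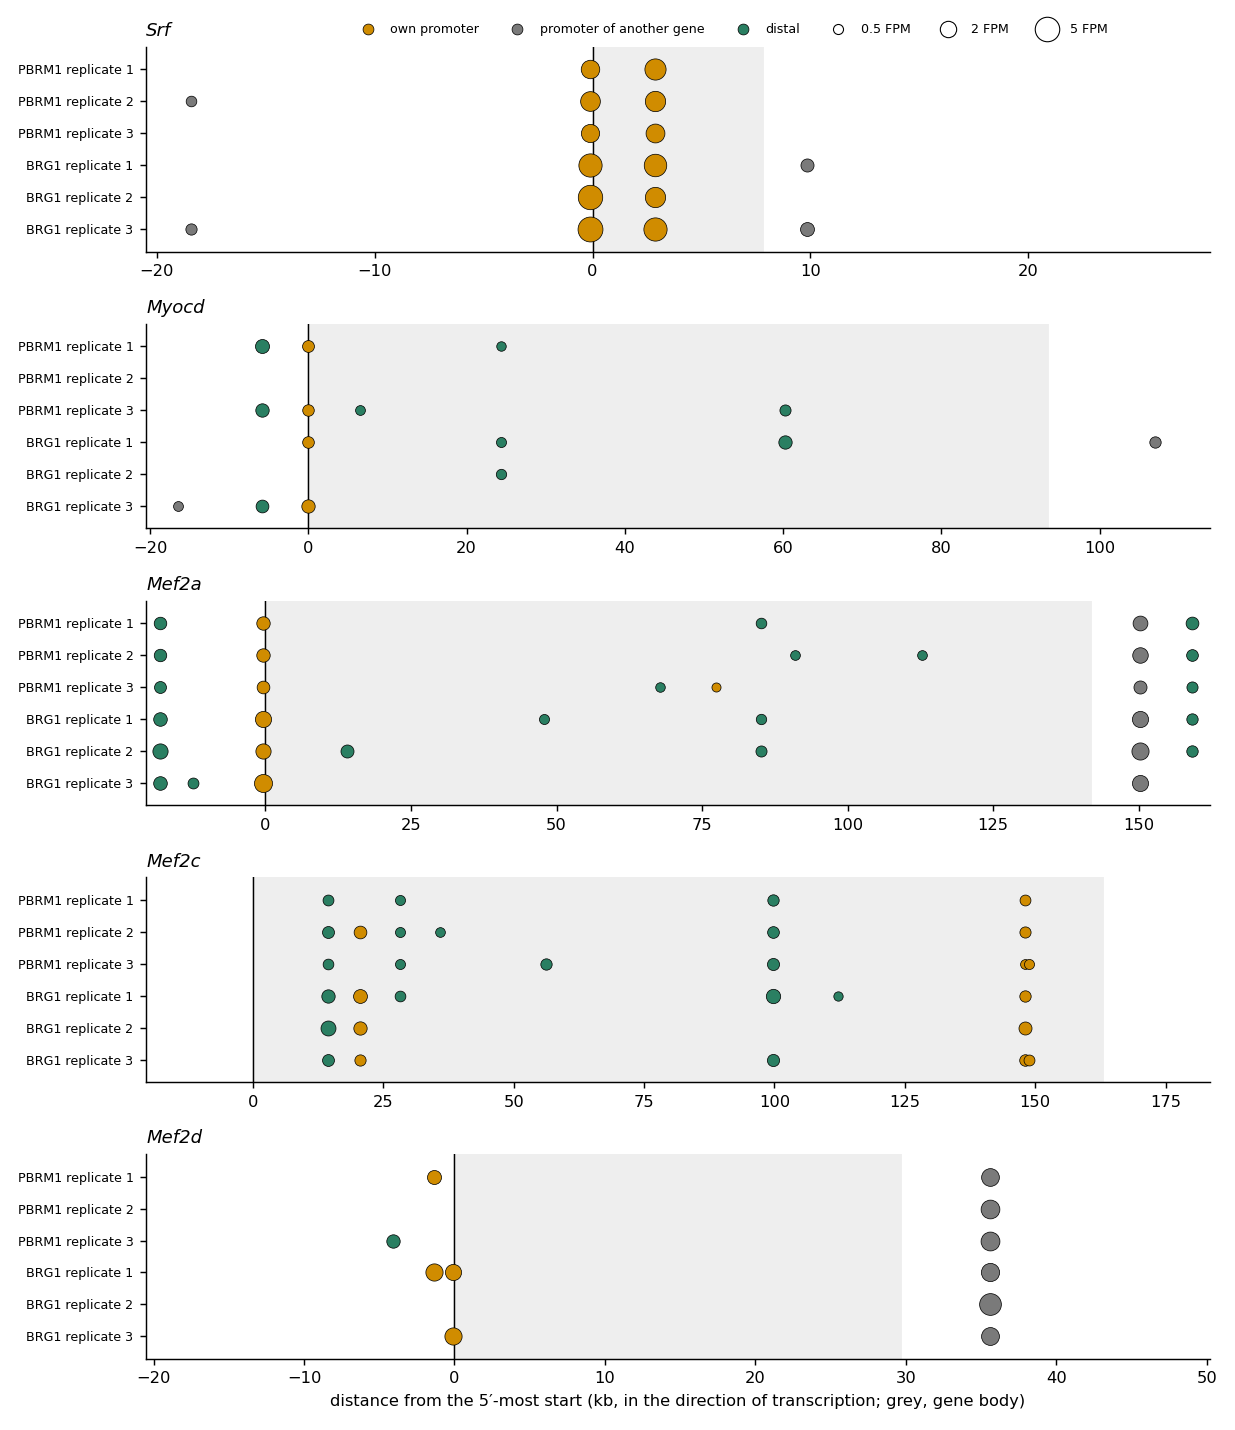
Called peaks in the 5 loci, by distance of the site from the 5′-most start of the gene (x axis, kb) and library (rows), with point area rising with summit pileup in FPM, and color giving the class of the site. *Srf* had only promoter sites of its own or of neighbors, whereas the peaks of *Mef2a* and *Mef2c* were spread along the gene, and replicate 2 of PBRM1 had no peak in the *Myocd* locus.

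*Srf* (ENSMUSG00000015605.6, chr17:46548329-46556175 in mm10, minus strand) had the highest promoter pileups of the 5. By fold enrichment over the local background it did not stand apart from *Mef2a*. The range over the 6 lists was 4.59 to 6.57 at the *Srf* start and 4.28 to 7.59 at the *Mef2a* promoter. At *Srf*, a pair of sites was called in all 6 lists, 1 immediately upstream of the start and 1 in the gene. The promoter site spanned chr17:46556209-46556657 with its summit 99 bp upstream of the start, where it also fell in an intron of the overlapping gene model *Gm26904*. Its PBRM1 levels in replicates 1, 2 and 3 were 2.68, 3.09 and 2.58 FPM, and its BRG1 levels were 4.47, 4.97 and 5.19. All BRG1 values lay above all PBRM1 values, and the site ranked at the 99.6th percentile of 6-list sites by BRG1 level and the 98.9th by PBRM1 level. The BRG1 level was 1.75-fold the PBRM1 level, a log2 difference of 0.81 ± 0.10 (SE, n = 3 libraries each). An exact two-sided permutation test gave p = 0.1, and 0.167 after Benjamini-Hochberg adjustment over 5 tests. With 3 libraries against 3, 0.1 is the smallest p this test can give. The direction held for fold enrichment over the local background (log2 difference 0.38) and after each library was divided by its median over 6-list sites (0.34).

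The internal *Srf* site spanned chr17:46552875-46553381 in intron 2 of the 7-exon coding transcript, with its summit 2866 bp downstream of the start. It counts as a promoter site only through a retained-intron transcript that starts 1516 bp away, and it also lies 580 bp from the start of the microRNA gene *Mir6976*. Its PBRM1 levels were 3.64, 3.31 and 2.79 FPM and its BRG1 levels 4.15, 3.29 and 4.46. The antibodies overlapped here, and replicate 2 of BRG1 was below 2 of the PBRM1 values. The site was at the 99.6th percentile by PBRM1 level and the 98.2nd by BRG1 level. The log2 difference of 0.29 ± 0.17 (SE; exact permutation p = 0.3) changed sign to -0.16 by fold enrichment and to -0.18 after division by the library medians. In the pooled lists, which the study called on the 3 replicates of an antibody together, the order of the *Srf* sites depended on the antibody. PBRM1 had 190 fragments at the intronic summit and 164 at the promoter, and BRG1 had 179 and 219.

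Both *Srf* sites contained the binding element of SRF itself. The sequences are shown because 137 of the 12828 6-list sites, 1.07%, had a CArG box within 100 bp of the summit. Capitals mark matches on either strand to the CArG box, the SP/KLF motif GGGCGG, the NF-Y motif CCAAT, the ETS motif CCGGAA, the TEAD motif GGAATG and the CRE motif TGACG. Both stretches are on the minus strand of mm10, read from RefSeq assembly GRCm38.p6, and 2 bases annotated as UTR were left out of the first, which covers chr17:46556176-46556374, while the second covers chr17:46553209-46553409.
Srf promoter: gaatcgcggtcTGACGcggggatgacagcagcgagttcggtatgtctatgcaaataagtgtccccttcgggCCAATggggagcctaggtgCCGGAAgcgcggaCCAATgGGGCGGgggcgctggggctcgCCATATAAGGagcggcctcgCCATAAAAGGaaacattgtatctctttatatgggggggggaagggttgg
Srf intron 2: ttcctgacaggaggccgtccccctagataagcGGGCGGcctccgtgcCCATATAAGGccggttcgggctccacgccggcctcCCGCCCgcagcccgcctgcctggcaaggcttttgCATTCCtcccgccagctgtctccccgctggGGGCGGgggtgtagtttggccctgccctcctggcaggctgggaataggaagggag
The promoter held 2 CArG boxes, CCATATAAGG with its first base 69 bp upstream of the annotated start and CCATAAAAGG with its first base 49 bp upstream. The intronic site held 1, again CCATATAAGG, beginning 2813 bp downstream. The promoter also had 2 CCAAT boxes and 1 GGGCGG, elements present at 31.3% and 54.6% of the 8344 6-list sites near a start. A letter match is a description and does not show that SRF was bound. No other site of the 5 loci with a peak in at least 2 lists held a CArG box, and none, those of *Srf* included, held a MEF2 site, which was present at 0.904% of all 6-list sites.

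The signal around the *Srf* summits was high as well. The peak caller compares each summit with the signal in the surrounding 10 kb, a window that includes the peaks themselves, and this local background can be read back from the pileup and the fold enrichment. At the 2 *Srf* sites it was 0.477 to 0.737 FPM, at the 99.5th to 99.8th percentile of the peaks in each library, against a median of 0.158 to 0.183 FPM over all peaks. The 2 summits stood 4.32-fold to 6.57-fold above it. The remaining *Srf* sites belonged to neighbors, 1 at the promoter of *Cul9* in 2 BRG1 lists and 1 within 2 kb of a start of *Ptk7* in 1 list of each antibody. *Srf* had no distal site in any list.

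**Figure D2:**
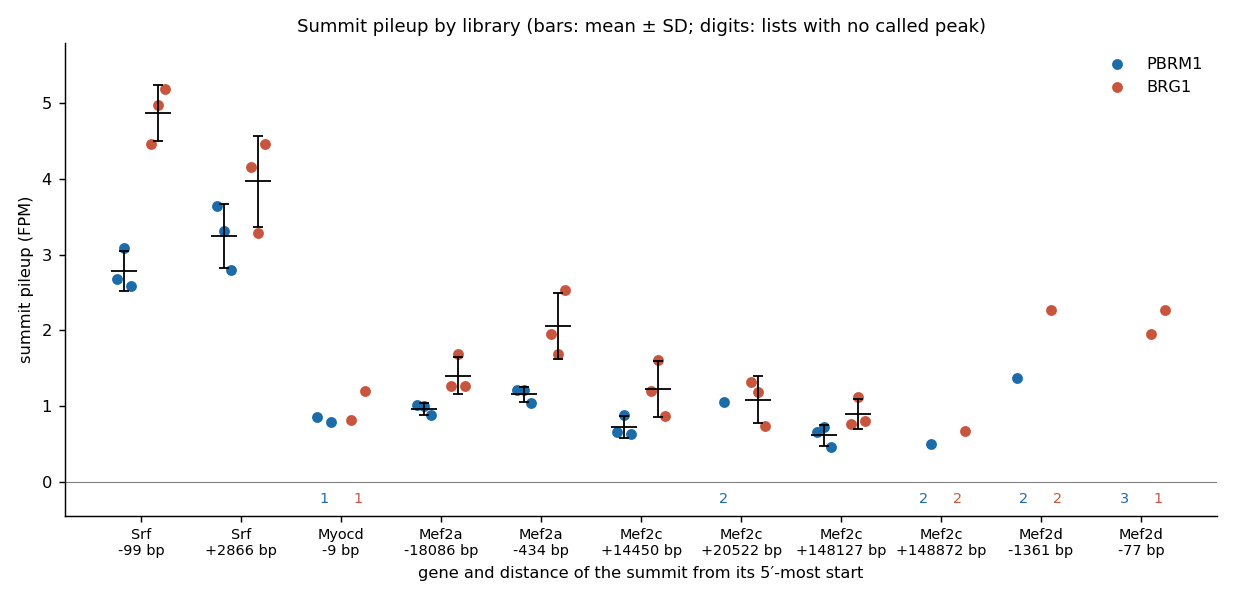
Summit pileup (y axis, FPM) at the promoter sites with a peak in at least 2 lists and the 2 distal sites with a peak in all 6 lists, by distance of the summit from the 5′-most start (x axis). Points are libraries, horizontal and vertical bars are means ± SD where all 3 libraries of an antibody had a peak, and colored digits count the lists with none. The 3 BRG1 libraries lie above the 3 PBRM1 libraries at the *Srf* and *Mef2a* promoters and overlap with them at the *Srf* intronic site.

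*Myocd* (ENSMUSG00000020542.18, chr11:65176561-65269989, minus strand), which encodes the coactivator of SRF in cardiac and smooth muscle, was occupied weakly and unevenly between replicates. Of its 7 sites none had a peak in all 6 lists. The promoter site, with its summit 9 bp upstream of the start, was at 0.859 and 0.792 FPM in replicates 1 and 3 of PBRM1 and at 0.818 and 1.20 in replicates 1 and 3 of BRG1. Replicate 2 of each antibody had no peak there, and those were the lists with the fewest fragments and the fewest peaks of their antibody. The part of depth in this was not tested. In the pooled lists the promoter had 41 fragments for PBRM1 (0.662 FPM) and 38 for BRG1 (0.840 FPM). The window around the summit held a CCAAT box, read here as its reverse complement ATTGG, but no CArG box. The part upstream of the transcript, chr11:65269990-65270098 on the minus strand, is shown because it is the promoter of the SRF coactivator.
Myocd promoter: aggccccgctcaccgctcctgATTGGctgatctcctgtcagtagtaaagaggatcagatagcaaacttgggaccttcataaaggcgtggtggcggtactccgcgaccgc

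The strongest *Myocd* site by PBRM1 level was not the promoter but a distal site 5815 bp upstream of it. It was at 1.36 and 1.21 FPM in replicates 1 and 3 of PBRM1 and at 1.06 in replicate 3 of BRG1, with no peak in the other 3 lists. In the pooled PBRM1 list it had 71 fragments, 5.56-fold over the local background, and ranked at the 94.4th percentile of the list by q value, against the 56.5th for the promoter. Within the gene, a site in intron 1 (24331 bp from the start) was called in 3 lists at 0.404 to 0.560 FPM, and one in intron 5 (60196 bp) in 2 lists. The intron 5 window contained an AP-1 motif (TGACTCA) and 2 TEAD motifs, elements found at 22.6% and 17.9% of the 6-list sites away from starts.

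*Mef2a* (ENSMUSG00000030557.17, chr7:67231163-67372858, minus strand) encodes a broadly expressed MEF2 factor and had the most sites of the 5, 12, of which 9 were distal and 3 had a peak in all 6 lists. The promoter site (chr7:67372820-67373661, summit 434 bp upstream) was at 1.21, 1.21 and 1.04 FPM with PBRM1 and at 1.95, 1.68 and 2.53 with BRG1. Every BRG1 value was above every PBRM1 value. The BRG1 level was 1.75-fold the PBRM1 level, a log2 difference of 0.81 ± 0.19 (SE, exact permutation p = 0.1, adjusted p = 0.167). The direction was the same by fold enrichment (0.42) and after division by the library medians (0.34). The second 6-list site was distal, in intergenic sequence 18086 bp upstream (chr7:67390534-67391611). It was at 1.01, 0.993 and 0.875 FPM with PBRM1 and at 1.26, 1.68 and 1.26 with BRG1, again without overlap (log2 difference 0.53 ± 0.15, SE; exact permutation p = 0.1). The third was the shared promoter region of *Lysmd4* and *1700112J16Rik* beyond the 3′ end of *Mef2a*, at 1.13 to 1.77 FPM with PBRM1 and 1.93 to 2.24 with BRG1.

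The windows of the promoter and the upstream site, chr7:67373192-67373392 and chr7:67390844-67391044, both on the minus strand, are shown because they represent the unlike kinds of site at this gene.
Mef2a promoter: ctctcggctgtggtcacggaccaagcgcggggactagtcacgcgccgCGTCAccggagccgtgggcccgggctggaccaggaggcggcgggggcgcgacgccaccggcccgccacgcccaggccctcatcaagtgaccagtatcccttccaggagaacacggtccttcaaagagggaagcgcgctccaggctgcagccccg
Mef2a upstream site: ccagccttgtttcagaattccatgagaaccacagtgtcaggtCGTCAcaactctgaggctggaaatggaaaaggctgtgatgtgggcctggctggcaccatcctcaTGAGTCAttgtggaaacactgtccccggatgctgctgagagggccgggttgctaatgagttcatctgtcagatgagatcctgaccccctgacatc
The promoter window was 71.6% G+C and held a single CRE motif, with none of the other motifs searched. The upstream window was 53.2% G+C and held an AP-1 motif (TGAGTCA), present at 22.6% of 6-list sites away from starts and at 4.45% of those near one, with a CRE motif. A further distal site past the 3′ end, in an intron of *1700112J16Rik*, was called in 5 lists at 0.709 to 1.06 FPM and also had an AP-1 motif (TGACTCA). A site in intron 4 (85122 bp) was called in 3 lists. The other 7 sites were each called in 1 list at 0.333 to 1.12 FPM, and which library called them differed from site to site.

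*Mef2c* (ENSMUSG00000005583.16, chr13:83504034-83667080, plus strand), the MEF2 gene required for heart and vascular development, has 27 annotated starts, the most of the 5. Its pileups were low and its peaks internal. Fold enrichment over the local background was not low throughout, at 3.04 to 6.91 and 4.11 to 8.75 at its 2 sites with 6 lists, in introns 7 and 1. No list had a peak within 2 kb of the 5′-most start. The promoter site with a peak in all 6 lists (chr13:83651625-83652397) lay in intron 7 of 11 exons, 148127 bp downstream, and counts as a promoter site only because a coding transcript starts 727 bp away. The nearest start of a transcript in the GENCODE basic set was 76484 bp away. Its PBRM1 levels were 0.657, 0.717 and 0.459 FPM and its BRG1 levels 0.755, 1.12 and 0.798, without overlap but with little space between the groups. The peaks joined here did not all share a base. The outermost summits were 625 bp apart, and the peaks of replicates 2 and 3 of PBRM1 lay apart from that of replicate 1, so the levels are not those of a single summit. At each of the other 7 sites with 6 lists the 6 peaks shared a base, as at 87.4% of such sites in the genome. The log2 difference was 0.55 ± 0.27 (SE; exact permutation p = 0.1, adjusted p = 0.167). After division by the library medians it was 0.08 with overlapping groups (p = 0.7 in the same exact test), and by fold enrichment the groups overlapped too (0.44, exact permutation p = 0.2).

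A second internal promoter, 20522 bp downstream and 21 bp from a coding start of the basic set, had a peak in all 3 BRG1 lists, at 1.32, 1.19 and 0.732 FPM, and in replicate 2 of PBRM1, at 1.05. These were not the same summit either. The PBRM1 peak did not overlap those of replicates 1 and 2 of BRG1, and the outermost summits were 918 bp apart, so the levels are not compared. The distal site in intron 1 (chr13:83518010-83518766, 14450 bp downstream) was called in all 6 lists, at 0.657, 0.883 and 0.625 FPM with PBRM1 and 1.20, 1.61 and 0.865 with BRG1. The lowest BRG1 value fell below the highest PBRM1 value, and the log2 difference of 0.73 ± 0.30 (SE) gave an exact permutation p = 0.2. Sites in intron 2 (28209 bp) and intron 4 (99786 bp) had a peak in all 3 PBRM1 lists, at 0.496 to 0.505 and 0.758 to 0.917 FPM, and in 1 and 2 BRG1 lists. The first of these was the one site in the 5 loci with all 3 PBRM1 lists and a single BRG1 list, at 0.629 FPM.

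The windows of the *Mef2c* sites called in all 6 lists, chr13:83652061-83652261 and chr13:83518384-83518584 on the plus strand, are shown because they differ in composition.
Mef2c intron 7: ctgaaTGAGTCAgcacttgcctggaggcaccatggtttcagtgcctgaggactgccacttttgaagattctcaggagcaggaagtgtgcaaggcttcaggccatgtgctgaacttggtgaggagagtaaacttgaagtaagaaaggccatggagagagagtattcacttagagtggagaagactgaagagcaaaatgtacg
Mef2c intron 1: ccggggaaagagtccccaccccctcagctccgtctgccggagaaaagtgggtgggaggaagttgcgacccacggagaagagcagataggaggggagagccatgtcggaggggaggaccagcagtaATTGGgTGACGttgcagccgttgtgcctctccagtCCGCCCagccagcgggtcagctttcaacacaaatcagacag
The intron 7 window was 48.3% G+C and held an AP-1 motif (TGAGTCA) and no other motif searched, although it was classed as a promoter. It lies outside the peaks of replicates 2 and 3 of PBRM1. The intron 1 window was 61.2% G+C and held 1 GGGCGG, 1 CCAAT box and 1 CRE motif, although it was classed as distal. Among all 6-list sites the median G+C content was 64.7% near a start and 50.8% elsewhere. By these letters the intron 7 window lay nearer to the median away from starts, and the intron 1 window nearer to that close to them.

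*Mef2d* (ENSMUSG00000001419.17, chr3:88142372-88172086, plus strand) encodes another broadly expressed MEF2 factor. Its promoter had levels like those of *Mef2a* in the lists that called it, and yet few calls. The site at the start, with its summit 77 bp upstream, was at 1.95 and 2.26 FPM in replicates 1 and 3 of BRG1 and had no PBRM1 peak. A second site 1361 bp upstream was at 1.36 in replicate 1 of PBRM1 and 2.26 in replicate 1 of BRG1. The pooled lists, with more fragments, called both regions with both antibodies, at 70 and 74 fragments for PBRM1 (1.13 and 1.20 FPM) and 83 and 78 for BRG1 (1.84 and 1.73 FPM). The absence of a PBRM1 peak at the start in single lists is therefore not an absence of signal.

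The local background moved with this. At the 2 *Mef2d* promoter sites it was 0.537 to 0.833 FPM, at the 99.8th to 99.9th percentile of each list, and the fold enrichments were only 2.25 to 2.75. At the *Mef2a* promoter, with like pileups, the background was 0.200 to 0.281 FPM and the fold enrichment 4.28 to 7.59. The *Myocd* promoter had a background of 0.195 to 0.214 FPM and a fold enrichment of 3.39 to 4.71. The part of the local background in the missing calls was not tested. The stretch upstream of the transcript, chr3:88142195-88142371 on the plus strand, is shown because its G+C content is the highest of the promoter windows.
Mef2d promoter: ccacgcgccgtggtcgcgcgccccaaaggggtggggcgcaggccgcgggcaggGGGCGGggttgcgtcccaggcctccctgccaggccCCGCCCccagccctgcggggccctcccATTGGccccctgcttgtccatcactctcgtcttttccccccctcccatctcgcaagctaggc
The full window was 75.1% G+C, with 2 GGGCGG matches and 1 CCAAT box. One site of the *Mef2d* locus had a peak in all 6 lists, at the promoter of *1700113A16Rik* beyond the 3′ end, at 2.43, 2.76 and 2.79 FPM with PBRM1 and 2.58, 3.85 and 2.46 with BRG1. The groups overlapped there, and the log2 difference of 0.13 ± 0.22 (SE; exact permutation p = 0.8) turned to -0.34 after division by the library medians and to -0.20 by fold enrichment.

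**Figure D3:**
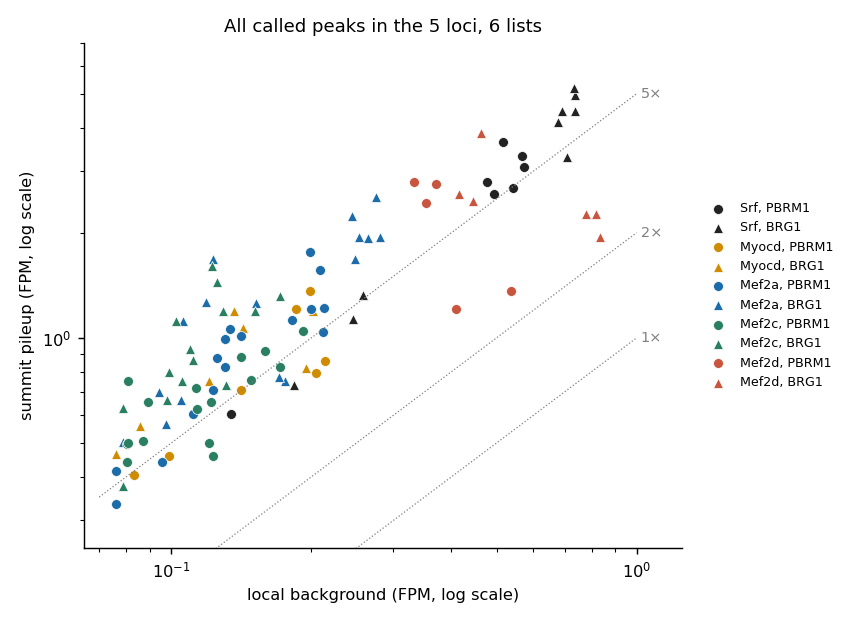
Summit pileup (y axis) against local background (x axis), both in FPM on log scales, for the 105 peaks of the 5 loci, colored by gene with circles for PBRM1 and triangles for BRG1. Dotted lines mark pileups 1, 2 and 5 times the background, and the *Mef2d* promoter peaks lie near the line for 2 times while the *Srf* peaks, at a like background, lie near or above that for 5.

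Across the 5 loci, the difference between BRG1 and PBRM1 at the same sites was close to that over the genome. At 5 of the 8 sites with 6 lists all BRG1 values were above all PBRM1 values, against 56.8% of such sites in the genome, and at 0 of 8 the reverse held, against 0.756%. The median log2 difference over the 8 sites was 0.54, against 0.49 over all 6-list sites, and after division by the library medians these became 0.08 and 0.02. With that scaling 2 of the 8 sites, the *Srf* and *Mef2a* promoters, kept non-overlapping groups, against 13.8% of all sites, and by fold enrichment 4 did, against 29.0%. Before it, these promoters stood at the 87.4th and 87.6th percentile of the log2 difference among all 6-list sites. That set mixes classes of site that differ in FPM. Within 2 kb of a start the median log2 difference was 0.59, and 5906 of 8344 sites had all BRG1 above all PBRM1 values. At the other 6-list sites the median was 0.27, and 1384 of 4484 had this order. The rank of the 2 promoters among sites near a start alone is not given. The tests of the *Srf* intronic site, the *Mef2a* upstream site, the *Mef2c* intron 1 site and the *Mef2d* neighbor were not among the 5 adjusted together, and their p-values are unadjusted. No site had all 3 lists of one antibody and none of the other.

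**Figure D4:**
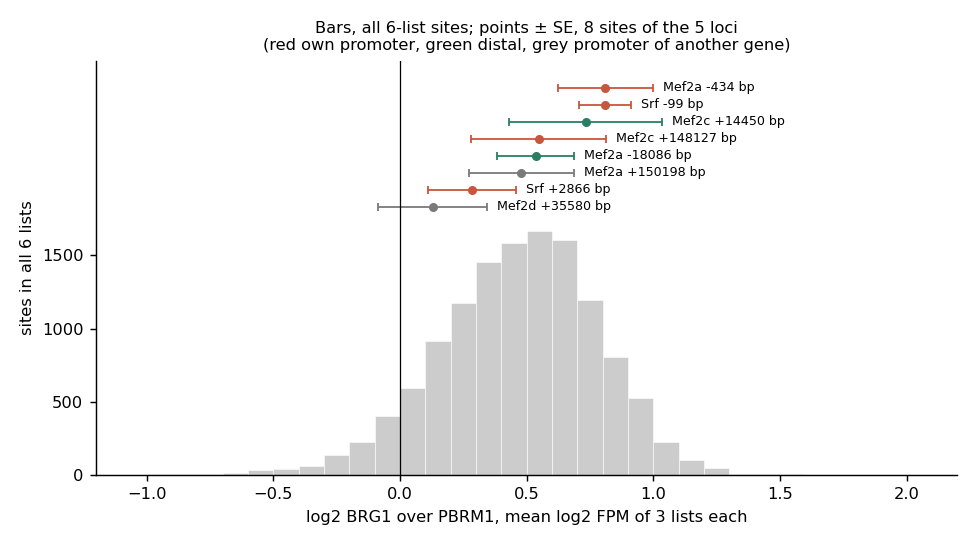
Distribution of the log2 difference of BRG1 over PBRM1 in pileup in FPM (x axis) over the 12828 sites with a peak in all 6 lists (y axis, sites per bin), with the 8 sites of the 5 loci drawn above as points ± SE. All 8 are above 0 on this scale, around the genome median of 0.49, and those of the *Srf* intron and the *Mef2d* neighbor fall below 0 under the other scalings.

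With all called peaks, the number of peaks in the 5 loci together did not separate the antibodies. There were 8, 8 and 11 distal peaks in the PBRM1 lists and 10, 6 and 5 in the BRG1 lists (9.0 ± 1.73 and 7.0 ± 2.65, mean ± SD, n = 3; exact permutation p = 0.4, adjusted p = 0.5). Promoter peaks of the 5 genes numbered 6, 5 and 7 with PBRM1 and 8, 5 and 8 with BRG1 (6.0 ± 1.0 and 7.0 ± 1.73; exact permutation p = 0.6, adjusted p = 0.6). The ranges overlapped in both cases. With 31944 peaks kept in every list, the difference in distal peaks (BRG1 minus PBRM1) was -3.0. Its exact permutation p was 0.1, the smallest possible, so the antibodies were separated there, with more distal peaks for PBRM1. The difference in promoter peaks was then 2.0 (exact permutation p = 0.3). These p-values are unadjusted. Of the 36 sites, 14 (38.9%) were called in a single list, against 47.0% of all sites. In the pooled lists the loci held 44 PBRM1 and 48 BRG1 peaks. Of these, 18 and 22 overlapped no peak of their own replicates and are called at greater depth only. The same share over all pooled peaks is not given, so these counts do not set the loci apart from the genome.

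Most genes that act with these factors had occupied promoters. Of 11 SRF cofactor genes 9 had a promoter peak in all 6 lists, where the background is 41.8% of protein-coding genes, and none was without a peak. *Mrtfa*, the actin-regulated coactivator related to myocardin, had a mean level of 3.28 FPM with PBRM1 and 3.80 with BRG1. The exceptions were *Elk3*, a ternary complex factor, with all 3 BRG1 lists and no PBRM1 list, and *Hmgxb4*, with 3 lists. Over all genes 164 had the pattern of *Elk3*. Of 8 MEF2 genes and partners 7 had all 6 lists, with *Hdac4*, a class IIa deacetylase that represses MEF2 proteins, at 2.80 and 4.68 FPM and *Mapk7*, the ERK5 kinase that activates them, at 2.28 and 3.48. *Hdac9* had 3 lists.

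Of 17 SRF target genes 10 (58.8%) had a promoter peak in all 6 lists, against 41.8% of protein-coding genes. *Vcl*, the gene of the adhesion protein vinculin, was at 3.22 FPM with PBRM1 and 5.34 with BRG1, *Actg1*, a cytoplasmic actin, at 2.30 and 3.84, and the immediate early gene *Fos* at 2.24 and 3.89. The contractile genes *Acta2*, *Tagln*, *Smtn*, *Cald1* and *Tpm1* also had all 6 lists. *Myh11* and *Actg2*, which encode smooth muscle myosin and actin, had 1 list each and *Cnn1* none. Of 6 MEF2 target genes 2 (33.3%) had all 6 lists, a share below that of all protein-coding genes. These were *Klf2* at 1.61 and 3.19 FPM and *Nr4a1* at 1.58 and 2.48. *Myog*, the skeletal muscle regulator, had no list. A CArG box was found at 1 of the 13 promoter sites with 6 lists among the SRF targets, that of *Vcl*, and at 1 of 10 among the SRF cofactors, that of *Fhl2*. The search allowed no mismatch to the consensus and covered only 100 bp on each side of the summit. In that window 0.863% of all 6-list sites near a start had a match. A CArG box elsewhere in these promoters would not have been seen. These counts carry no test, since the lists were chosen with earlier results of these data known.

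**Figure D5:**
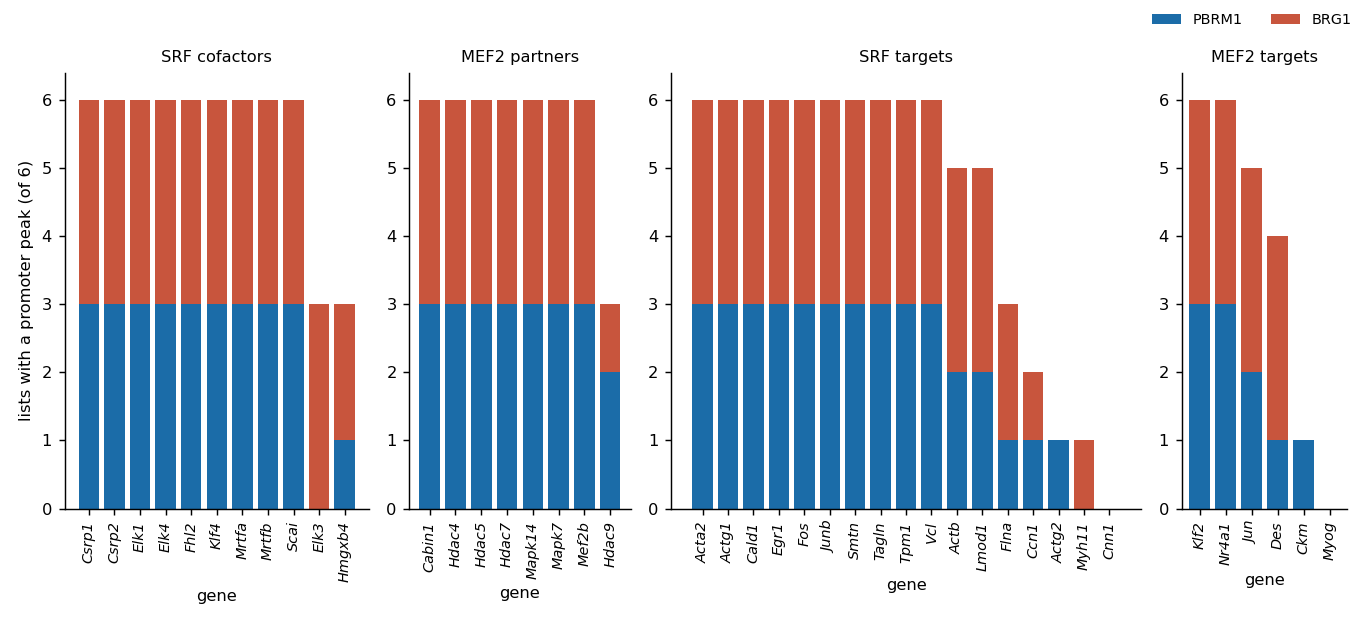
Number of replicate lists, of 6, with a promoter peak (y axis) for each gene of the cofactor, partner and target lists (x axis), divided by color into PBRM1 and BRG1 lists. Most cofactor and partner genes reach 6, whereas the target lists run from 6 down to *Cnn1* and *Myog* with 0.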

How the data were processed

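ChIC-Seq with antibodies to PBRM1 and BRG1 was analyzed from 6 replicate and 2 pooled peak lists, grouped by the antibody in the labels. Per the labels and file headers, the authors trimmed reads with cutadapt, aligned them with Bowtie2 to GRCm38.p5 and called narrow peaks with MACS 2.2.7.1 on paired fragments, without a control, at a q value of 0.05 with a local background of 10 kb. Coordinates are those of the deposited lists (mm10, the same build). The deposited lists give the pileup signal at each summit in fragments, not normalized, the fold enrichment over the local background and the −log10 q value as the authors' caller wrote them.

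Pileups were scaled to 1000000 of the fragments in each header (14284532 to 23992352 in a replicate list). Fold enrichment was taken as (pileup + 1)/(background + 1) to compute the local background, and 4.72% to 11.8% of peaks per list then lay within 1% of its lowest value. Peaks on autosomes and X were joined into sites where they overlapped by 1 bp, a library's highest peak standing for it. Levels were compared as mean log2 values with exact two-sided permutation tests over libraries, enumerated in Python 3.11.15 with NumPy 2.4.6. From these, 5 p-values were adjusted by Benjamini-Hochberg. Motifs were searched on both strands within 100 bp of each site's median summit. Site merging and tests were tested on simulated data. The members and gene lists were chosen with earlier results of these data known. Promoter sites in at least 3 lists and distal sites in all 6 are described one by one, others being counted or named for their position after their values were seen. The 3 genes nearest a member are those with the smallest Euclidean distance over 6 libraries in log2 promoter level. Same-numbered libraries did not deviate together (correlations of 6.19e-05, 0.00349 and -0.0288 over 12828 sites), so replicate numbers were not used as pairs.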

Additional observations from a re-analysis of the deposited data

How the results depend on the processing

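Of 85 values recomputed under an alternative for 9 results, 81 kept their direction or stayed within 1.5 times the count and none reversed. Not all of them could reverse. With replicates as a block the mean differences equal the main ones, and leaving out a list loosens the demand for a peak in all lists. The *Srf* intronic site and the *Mef2d* neighbor, which changed sign under other scalings, were not among the 9 results. The *Mef2c* difference fell from 0.55 to 0.08 after division by the library medians and was counted as kept. The tests could not pass 0.05 in this design, so their p-values say nothing of stability. Dividing by library medians lowered the number of sites with all BRG1 above all PBRM1 values from 5 to 2 of 8. Keeping peaks with −log10 q of at least 5 took the difference in distal peaks per library (BRG1 minus PBRM1) from -2.0 to 0.0 and the distal sites in all 6 lists from 2 to 1, as did a flank of 10 kb for the latter count. At that q limit the *Mef2c* site had peaks in 3 lists and gave no value. Leaving out 1 replicate list moved the *Srf* difference between 0.76 and 0.89, *Mef2a* between 0.65 and 0.95, *Mef2c* between 0.35 and 0.68, distal peaks between -3.5 and -1.0, promoter peaks between 0.5 and 2.0, sites in all lists between 8 and 9 and distal sites in all lists between 2 and 3. Distal peaks differed by -3.5 without replicate 1 of BRG1 and by -1.0 without replicate 3 of either antibody. With an equal number of peaks per list they differed by -3.0, without overlap between the antibodies. With replicate numbers as a block, mean differences were 0.81, 0.81, 0.55, -2.0 and 1.0, which had to equal the main values in this balanced design. The exact sign-flip p was 0.25, 0.25, 0.25, 0.75 and 0.5, where 0.25 is the smallest p that 3 pairs allow. Counting only starts of basic transcripts, chosen after seeing the data, gave 3 distal sites in all 6 lists in place of 2, and 2 of the 5 genes with a promoter peak in all 6 lists in place of 3. At 6 to 78 fragments per summit, an uncalled site may hold signal below the calling limit.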

Other observations

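The genes whose highest promoter level was most like that of *Srf* over the 6 libraries were *Cic*, *Hnrnpa3* and *Msh3*, at Euclidean distances of 0.206, 0.246 and 0.262 in log2 FPM. *Cic* had mean levels of 4.56 FPM with BRG1 and 3.18 with PBRM1. The *Srf* profile joins the PBRM1 levels of the intron 2 site to the BRG1 levels of the site at the start, and the *Mef2c* profile joins 3 internal sites. For *Mef2a* the nearest genes were *Smurf2* (0.114), *Tuba4a* (0.222) and *B3gnt9* (0.234), and for *Mef2c* they were *Lyg2* (0.409), *Abcg4* (0.460) and *Itga4* (0.468). *Myocd* and *Mef2d* lacked a level in at least 2 libraries and were not compared in this way.

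For its size, the *Srf* locus was the densest of the 5, with 8.36 sites per 100 kb (76.5th percentile of protein-coding genes), and *Mef2c* the sparsest, with 4.43 (45.6th percentile). *Mef2a* had 3 sites with 6 lists, more than 90.6% of protein-coding genes, a count that is not scaled to the size of the locus. Among the 3 was the shared promoter region of *Lysmd4* and *1700112J16Rik*. By the number of all its sites per 100 kb, *Mef2a* stood at the 64.2nd percentile. In the pooled lists a site in intron 1 of *Mef2a*, 13927 and 13947 bp from the start with the 2 antibodies, had 48 PBRM1 and 36 BRG1 fragments (0.775 and 0.796 FPM), although a single replicate list, replicate 2 of BRG1, called it.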
